A study of Rattus norvegicus with 6 samples.

Results

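Cytokines and chemokines that the lining of the colon can make were followed in RNA of the rat colon's inner epithelial layer. The genes were 10 chosen members: 5 of the interleukin-1 family (Il1a, Il1b, Il1rn, Il18 and Il33), 4 chemokines (Cxcl1, Ccl20, Ccl28 and Cx3cl1) and Tnf. They were found by matching RefSeq transcripts of the deposited table to gene symbols, and all 10 had a row, each with a single transcript, among 13104 genes and unmatched transcripts. The study gave melatonin (1 mg/kg, into the peritoneum) to 3 adult male Wistar rats and vehicle (2.5% ethanol in PBS) to 3 others, at the start of subjective night, and took tissue 4 h later. Every animal of both groups had lost its pineal gland, so the hormone's own nightly rise was missing in vehicle animals too. Melatonin animals carry the numbers 4 to 6 and vehicle animals the numbers 1 to 3, and each animal was its own sample. The labels call the animals adult and give no age.

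Epithelial cells can make these messengers to warn and to call in immune cells. IL-1 alpha and IL-33 are kept inside the cell and are released when it is damaged. IL-1 beta and IL-18 are made as inactive precursors that caspase-1 cuts within the inflammasome, a protein complex that senses microbes and stress, and the IL-1 receptor antagonist, encoded by Il1rn, blocks the receptor of both IL-1 forms. Chemokines guide leukocytes: CXCL1 draws neutrophils, CCL20 draws cells with the receptor CCR6 towards lymphoid follicles, CCL28 draws antibody-secreting cells with CCR10 to mucosal surfaces, and CX3CL1, also called fractalkine, sits on the cell surface until it is shed and binds CX3CR1 of macrophages. TNF is the classical inflammatory cytokine and in healthy gut comes mostly from immune cells.

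The values are FPKM, that is fragment numbers corrected for transcript length and library size, so levels of different genes can be set side by side. Steps between low values put the depth at an estimated 3260000 to 3600000 mapped fragments per library. Of 16 colon epithelium markers that check the tissue label, 14 had a row, none of them was at 0 in any animal, and their summed level was 14551 to 15236 FPKM after melatonin and 14205 to 15596 FPKM after vehicle. Cdx1 and Muc2 had no row matched to their symbols and so were not analysed. RNA integrity numbers were 9.0 to 9.7. Over the whole table, limma on log2(FPKM + 1) put 0 of 10137 features higher and 0 lower past an adjusted p of 0.05. Before adjustment, 185 were higher and 195 lower past 0.05. No other tool was run. Without melatonin animal 4 it called 4 higher, without vehicle animal 1 it called 3 higher, and without vehicle animal 2 it called 1 lower.

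The members fell into 3 tiers of level. Il18, Cx3cl1 and Ccl28 formed the upper tier, with means over the 6 animals of 123, 63.3 and 39.6 FPKM, above 94.3%, 88.3% and 81.3% of all features. These 3 genes held 86.8% to 92.7% of the members' summed FPKM in each animal. The range of Cx3cl1 overlapped those of Il18 and Ccl28, while the range of Il18 lay wholly above that of Ccl28. Il18 lay above Cx3cl1 in each of the 6 animals and Cx3cl1 above Ccl28 in 5. Il1rn (mean 7.78 FPKM), Ccl20 (5.58 FPKM) and Il33 (5.08 FPKM) formed the middle tier, clear of the upper one in every animal and overlapping each other. Il1b, Cxcl1 and Tnf were near the limit of detection, with means of 0.582, 0.468 and 0.460 FPKM, and their order is within counting error. Il1a belonged to the lower tier by its median over the animals, 0.665 FPKM, and reached the middle tier in its mean, 3.24 FPKM, through melatonin animal 6.

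**Figure D1:**
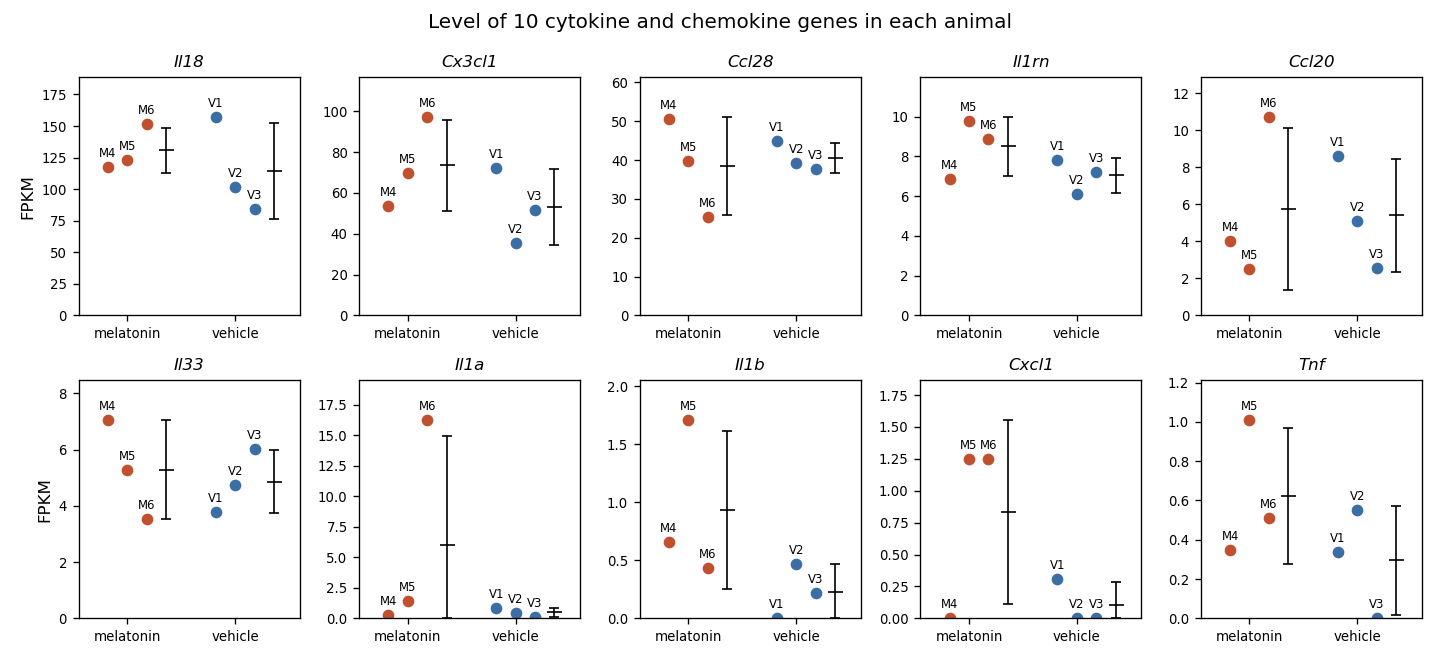
FPKM of each of the 10 genes in each animal, melatonin animals (M4 to M6) in red at the left of a panel and vehicle animals (V1 to V3) in blue at the right, with the mean and SD of each group in black (n = 3, lower bars cut at 0). Panels run from the highest mean to the lowest and have their own axes, and the groups overlap in all 10, with Il1a at 16.26 FPKM in M6 standing far above its other 5 values.

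None of the 10 genes separated the groups. The melatonin and vehicle animals overlapped for each of them, where 8.38% of all features tested did not overlap. The 7 members with a mean of at least 1 FPKM were tested in the fit over all features, and 0 of 7 passed an adjusted p of 0.05 in either direction, against 0% of all features higher and 0% lower. Before adjustment, 0 of 7 passed 0.05, against 3.75% of all features. Of the 7, 6 had a higher mean after melatonin on the log2 scale, where 46% of all features did. Ccl20 counts among these 6 with a log2 change of 0.001, which turned negative with scaling to summed FPKM or a pseudocount of 0.1. The median log2 change of the 7 was 0.23, against -0.02 over all features tested. That median was 0.15 without vehicle animal 2, 0.35 without vehicle animal 1 and 0.16 over the 6 members left by a filter that drops Il1a. Il1a passed the filter through melatonin animal 6 alone, so the 7 are not a sample of all members. In bulk tissue, fewer cells of a type and less RNA per cell cannot be told apart, and this holds for every value below. The labels name no batch. Each limma p-value sets the difference between the group means against the spread of these 6 animals inside their groups. That spread is drawn towards a trend fitted over all features.

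**Figure D2:**
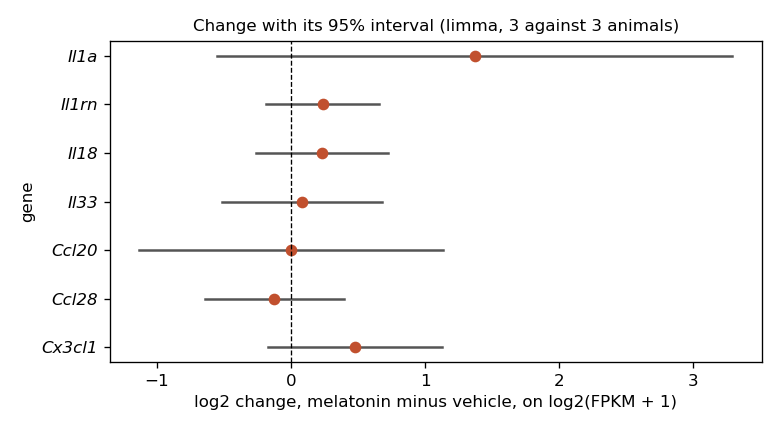
Log2 change (melatonin minus vehicle, of log2(FPKM + 1) values) of the 7 members tested, as points, with its 95% interval from limma as a line. All 7 intervals cross 0, and that of Il1a, -0.55 to 3.29, is the widest.

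In the interleukin-1 family, Il1a was the member with the most uneven values. Il1a encodes IL-1 alpha, which acts on the IL-1 receptor without needing to be cut first. It stood at 0.29, 1.42 and 16.26 FPKM in melatonin animals 4, 5 and 6, against 0.86, 0.47 and 0.14 FPKM in vehicle animals 1, 2 and 3. Melatonin animal 6 was high, animal 5 lay just above the vehicle animals, and animal 4 lay within their range. In estimated reads these were 2, 10 and 113 after melatonin and 6, 3 and 1 after vehicle. The 95% counting interval of animal 6, 13.4 to 19.5 FPKM, lay clear of that of every other animal, of which the highest ended at 2.62 FPKM. The log2 change was 1.37 ± 0.84 (SE, limma adjusted p = 0.972), and without melatonin animal 6 it was 0.27 (limma adjusted p = 1). The SD of its log2 values was 1.95 among melatonin animals, rank 16 of the 10137 features, and 0.35 among vehicle animals, rank 1598, with medians over all features of 0.21 and 0.17. The authors' deposited table gives Il1a a log2 ratio of 3.61, which is on the scale of the ratio of mean FPKM (5.99 after melatonin and 0.49 after vehicle). With a pseudocount of 0.1 in place of 1, the log2 change was 2.07.

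The IL-1 beta gene, which lies next to Il1a among protein-coding genes on chromosome 3, had no comparable value in animal 6. Il1b was listed at 0.66, 1.71 and 0.43 FPKM in melatonin animals 4, 5 and 6, against 0, 0.47 and 0.22 FPKM in vehicle animals 1, 2 and 3. Its highest value was in melatonin animal 5, and animal 6 lay within the vehicle range. No value rested on more than 8 estimated reads, and the 95% counting interval of the vehicle value of 0 ended at 0.792 FPKM. Il1b was not in the main fit, and a two-sided exact permutation test of its log2 values gave p = 0.2, where the smallest p that 3 against 3 animals allow is 0.1.

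The receptor antagonist was steadier. Il1rn stood at 6.88, 9.77 and 8.88 FPKM in melatonin animals 4, 5 and 6, against 7.83, 6.09 and 7.21 FPKM in vehicle animals 1, 2 and 3. Animals 5 and 6 lay above all vehicle animals and animal 4 lay among them. The means were 8.51 ± 1.48 FPKM after melatonin and 7.04 ± 0.882 FPKM after vehicle (SD, n = 3 each), a log2 change of 0.24 ± 0.18 (SE, limma adjusted p = 0.972) with a 95% interval of -0.19 to 0.66. Its level lay above that of Il1a in 5 of the 6 animals. In melatonin animal 6 the antagonist's level was 0.55 times that of Il1a.

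Il18, the most abundant member, encodes IL-18, which healthy colon epithelium makes all the time. Il18 stood at 117.75, 122.91 and 151.29 FPKM in melatonin animals 4, 5 and 6, against 157.23, 101.75 and 84.41 FPKM in vehicle animals 1, 2 and 3. The single highest value was that of vehicle animal 1, and the other two vehicle animals were the lowest of all, so every melatonin value fell inside the vehicle range. The means were 131 ± 18.1 FPKM after melatonin and 114 ± 38.0 FPKM after vehicle (SD, n = 3 each). The log2 change was 0.23 ± 0.22 (SE, limma adjusted p = 0.972), with an interval of -0.27 to 0.73. Il18bp, the secreted protein that binds and blocks IL-18, stood at 8.45, 20.38 and 20.73 FPKM in melatonin animals 4, 5 and 6, against 11.91, 8.33 and 11.42 FPKM in vehicle animals 1, 2 and 3. Animals 5 and 6 were above the vehicle range and animal 4 inside it (log2 change 0.52 ± 0.32, SE, limma adjusted p = 0.972).

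Il33 encodes IL-33, a nuclear alarmin that signals through the receptor encoded by Il1rl1. It stood at 7.06, 5.26 and 3.55 FPKM in melatonin animals 4, 5 and 6, against 3.79, 4.76 and 6.03 FPKM in vehicle animals 1, 2 and 3. The highest and the lowest value of all both belonged to melatonin animals. The log2 change was 0.08 ± 0.26 (SE, limma adjusted p = 0.983), its interval ran from -0.52 to 0.68, and its sign turned when melatonin animal 4 or vehicle animal 1 was left out (-0.12 and -0.06).

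**Figure D3:**
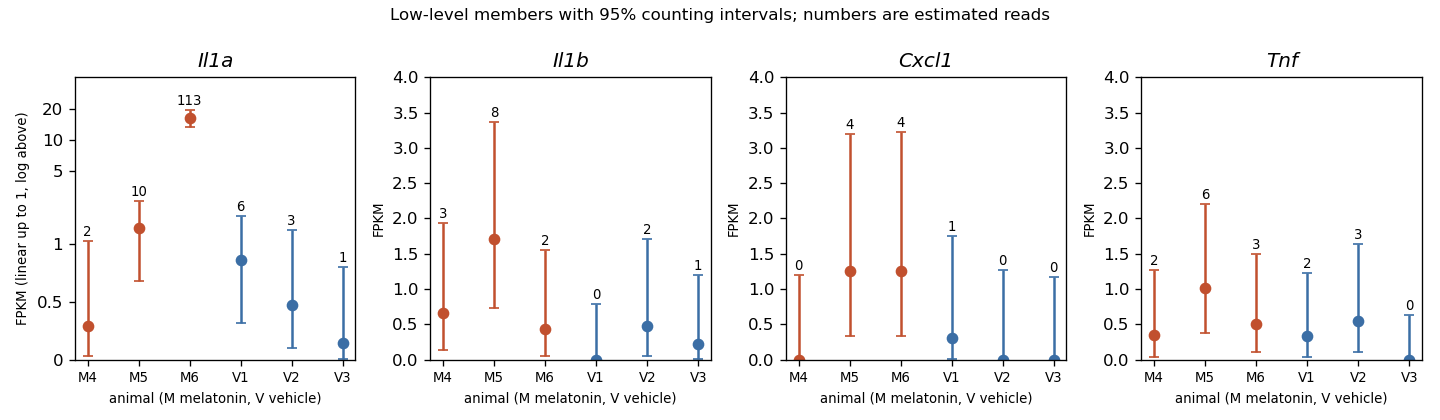
FPKM of the 4 members with the lowest median levels in each animal (M4 to M6 melatonin, V1 to V3 vehicle), with 95% counting intervals as bars and the estimated number of reads above each bar. The Il1a axis is linear up to 1 FPKM and logarithmic above, and only its value in M6 (113 reads) lies clear of the rest, while Il1b, Cxcl1 and Tnf rest on 8 reads or fewer.

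Among the member chemokines, Cx3cl1 had the largest log2 change of those tested. Cx3cl1 stood at 53.52, 69.75 and 97.30 FPKM in melatonin animals 4, 5 and 6, against 72.46, 35.26 and 51.74 FPKM in vehicle animals 1, 2 and 3. Only melatonin animal 6 lay above every vehicle animal, and vehicle animal 1 was second. The means were 73.5 ± 22.1 FPKM after melatonin and 53.2 ± 18.6 FPKM after vehicle (SD, n = 3 each). The log2 change was 0.48 ± 0.28 (SE, limma adjusted p = 0.972), with an interval of -0.17 to 1.13. The least value in any library was 345 estimated reads, so counting error is small beside the spread between animals. Cx3cr1, the fractalkine receptor of macrophages and some lymphocytes, stood at 2.23, 4.02 and 0.58 FPKM in melatonin animals 4, 5 and 6, against 4.93, 3.02 and 4.21 FPKM in vehicle animals 1, 2 and 3. Melatonin animal 6 had the most ligand RNA and the least receptor RNA. Vehicle animal 1, second for the ligand, had the most receptor RNA, so that pairing did not hold across animals. The log2 change of Cx3cr1 was -0.76 ± 0.41 (SE, limma adjusted p = 0.972).

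Ccl20 varied widely inside both groups. It stood at 4.04, 2.50 and 10.73 FPKM in melatonin animals 4, 5 and 6, against 8.60, 5.08 and 2.54 FPKM in vehicle animals 1, 2 and 3. Its highest and lowest values both belonged to melatonin animals, on 30 and 7 estimated reads. The means were 5.76 ± 4.38 FPKM after melatonin and 5.41 ± 3.04 FPKM after vehicle (SD, n = 3 each), with a log2 change of 0.00 ± 0.49 (SE, limma adjusted p = 1) and an interval of -1.13 to 1.13. The SD of its log2 values was 0.90 among melatonin animals and 0.72 among vehicle animals, ranks 223 and 255 of 10137. On 7 to 30 estimated reads, counting error adds to this spread, so the ranks do not give the variation in the tissue itself. Within each group, the 95% counting intervals of the highest and lowest animal for Ccl20 did not overlap. Its receptor gene Ccr6 was listed at no more than 0.78 FPKM in any animal.

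Ccl28 was even among vehicle animals and spread among melatonin animals. It stood at 50.46, 39.70 and 25.33 FPKM in melatonin animals 4, 5 and 6, against 44.99, 39.22 and 37.65 FPKM in vehicle animals 1, 2 and 3. Animal 4 was above and animal 6 below every vehicle animal. The means were 38.5 ± 12.6 FPKM after melatonin and 40.6 ± 3.87 FPKM after vehicle (SD, n = 3 each). The log2 change was -0.12 ± 0.23 (SE, limma adjusted p = 0.976), with an interval of -0.64 to 0.39, and without melatonin animal 6 it was 0.14. Whether the spread itself differed between the groups was not tested. Ccr10, its receptor on antibody-secreting cells, stood at 0.50, 0.16 and 0.49 FPKM after melatonin and 0.66, 1.97 and 0.50 FPKM after vehicle.

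Cxcl1 and Tnf were at the edge of detection. Cxcl1 was listed at 0, 1.25 and 1.25 FPKM in melatonin animals 4, 5 and 6, against 0.31, 0 and 0 FPKM in vehicle animals 1, 2 and 3, which is 0, 4 and 4 estimated reads against 1, 0 and 0. Tnf was listed at 0.35, 1.01 and 0.51 FPKM in melatonin animals 4, 5 and 6, against 0.34, 0.55 and 0 FPKM in vehicle animals 1, 2 and 3, on 6 reads at most. For both genes the groups overlapped and the counting intervals of all 6 animals overlapped one another. Overlap of single-animal intervals is not a test of the groups, and no difference is read from so few reads. Two-sided exact permutation tests gave p = 0.4 for each gene. Cxcr2, the receptor through which CXCL1 acts on neutrophils, was listed at 0 in all but vehicle animal 1 (0.22 FPKM).

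**Figure D4:**
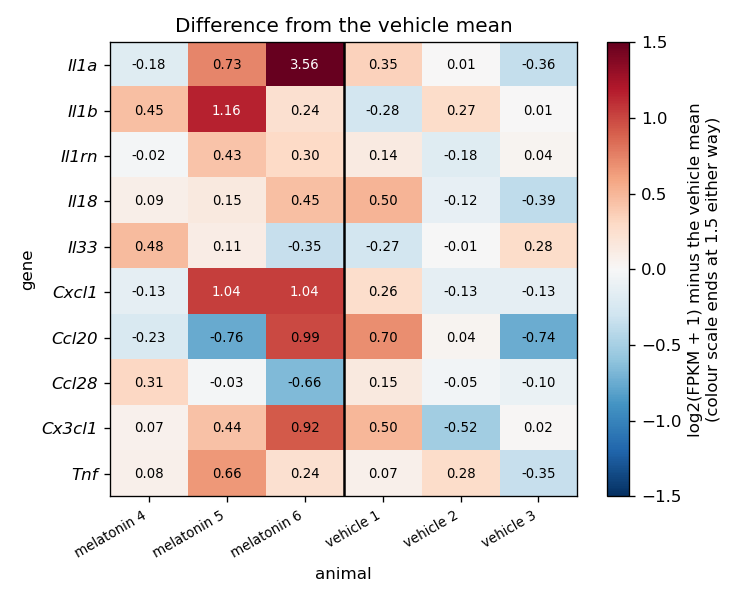
Difference of log2(FPKM + 1) from the mean of the 3 vehicle animals for each gene (rows) and animal (columns, melatonin left of the line and vehicle right of it), with the colour scale ending at 1.5 either way. Melatonin animal 6 holds the largest positive difference, 3.56 for Il1a, and also the lowest values of Ccl28 (-0.66) and Il33 (-0.35), so its column of differences does not go one way.

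Read by animal, the members did not follow treatment. Il18, Ccl20 and Cx3cl1 had melatonin animal 6 and vehicle animal 1 as their 2 highest animals. This pairing was picked after the values were seen, and 5.08% of the 9852 tested features without ties have it. Il1a and Il1rn had melatonin animals 5 and 6 on top, as did 9.33% of features. Ccl28 and Il33 had melatonin animal 4 on top and animal 6 at the bottom. Over the 7 members tested, the middle log2 difference from the mean of vehicle animals was 0.07, 0.15 and 0.45 in melatonin animals 4, 5 and 6, against 0.35, -0.05 and -0.10 in vehicle animals 1, 2 and 3. Animal 6 had the highest median and vehicle animal 1 the next, although over all features animal 6 had the lowest, -0.09. The medians show no order by group.

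Immune cells can also make several of these messengers, so their markers are given beside the members, as summed FPKM over each list. Markers of T and NK cells (10 of 10 with a row) summed to 12.7, 17.0 and 29.7 FPKM in melatonin animals 4, 5 and 6, against 15.7, 16.7 and 7.79 FPKM in vehicle animals 1, 2 and 3. The highest sum was thus in the animal with the highest Il1a, Cx3cl1 and Ccl20, and its part in those values was not tested. Of these markers, Gzmb, Cd3e, Cd8a and Cd3d were highest in animal 6. Cd3g, Cd2, Cd4, Cd247, Nkg7 and Prf1 were each highest in another animal. Macrophage and dendritic cell markers (10 of 12 with a row) summed to 29.1 to 47.7 FPKM after melatonin and 26.4 to 37.0 FPKM after vehicle, with the lowest melatonin sum in animal 6. Within that list Mrc1 was highest in melatonin animal 6, at 10.74 FPKM, and Adgre1 was at 0 in melatonin animal 6 and in vehicle animals 2 and 3. Neutrophil markers (7 of 9) summed to 6.43 to 10.7 FPKM after melatonin and 1.19 to 16.2 FPKM after vehicle, mostly S100a8 and S100a9 in each animal, with Camp, Cxcr2 and Ngp each at 0 in every melatonin animal and in all but 1 vehicle animal. Mast cell and eosinophil markers (8 of 8) summed to 65.0 to 187 FPKM after melatonin and 63.8 to 154 FPKM after vehicle, mostly from Mcpt1. Squamous epithelium markers (6 of 11) summed to 6.65 to 9.01 FPKM after melatonin and 3.75 to 10.1 FPKM after vehicle, with Krt14 above 0 in every animal and Krt1, Krt4, Krt13 and Krt15 each at 0 in 2 or more animals, over both groups. Fibroblast markers (7 of 7) summed to 1.91 to 3.20 FPKM after melatonin and 1.79 to 4.99 FPKM after vehicle. Endothelial markers (6 of 7) summed to 2.63 to 5.06 FPKM after melatonin and 2.40 to 4.24 FPKM after vehicle. Smooth muscle markers (6 of 7) summed to 11.0 to 16.5 FPKM after melatonin and 9.61 to 14.3 FPKM after vehicle, and B and plasma cell markers (4 of 7) to 0 to 9.87 FPKM after melatonin and 0.70 to 1.86 FPKM after vehicle.

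Genes with the most similar profiles over the 6 animals were sought for the tested members whose log2 values had an SD of at least 0.5, which were Il1a and Ccl20. Likeness was the root mean square difference between centred log2(FPKM + 1) profiles. For Il1a the closest were the microRNA precursors Mir6334 and Mir24-1 (0.36 each), which were at 0 in the other 5 animals and rested on about 2 and 1 estimated reads in melatonin animal 6, so both passed the filter through that animal alone. Next came Tifa (0.38), an adaptor that passes signals to NF-kappaB, the transcription factor behind many cytokine genes. Tifa stood at 2.64, 6.16 and 29.00 FPKM in melatonin animals 4, 5 and 6, against 6.53, 2.25 and 1.91 FPKM in vehicle animals 1, 2 and 3. For Ccl20 the closest were Tnxa-ps1 (0.13), Casp4 (0.26) and Tma16 (0.30). Casp4, an inflammatory caspase that senses bacterial lipopolysaccharide, stood at 15.26, 18.42 and 43.53 FPKM in melatonin animals 4, 5 and 6, against 30.41, 21.57 and 12.68 FPKM in vehicle animals 1, 2 and 3.

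The starts of the genes with these uneven or shared profiles are shown for comparison: Il1a, for its value in a single animal, and Il18, Ccl20 and Cx3cl1, for the same 2 highest animals. Each is the 250 bases before the RefSeq start on build GRCr8, read in the gene's direction. Capitals mark matches to GGGNNNNNCC, the general form of an NF-kappaB site, or to TATAAA, the TATA box, on either strand. The windows are chr3:136990018-136990267 (minus strand) for Il1a, chr8:59801822-59802071 (plus) for Il18, chr9:91836909-91837158 (plus) for Ccl20 and chr19:10242821-10243070 (minus) for Cx3cl1.
Il1a: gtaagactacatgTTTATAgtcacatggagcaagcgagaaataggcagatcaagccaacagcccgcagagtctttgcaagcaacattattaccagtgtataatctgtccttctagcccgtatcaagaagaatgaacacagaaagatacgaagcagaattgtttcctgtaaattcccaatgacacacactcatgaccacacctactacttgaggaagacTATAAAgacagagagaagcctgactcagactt
Il18: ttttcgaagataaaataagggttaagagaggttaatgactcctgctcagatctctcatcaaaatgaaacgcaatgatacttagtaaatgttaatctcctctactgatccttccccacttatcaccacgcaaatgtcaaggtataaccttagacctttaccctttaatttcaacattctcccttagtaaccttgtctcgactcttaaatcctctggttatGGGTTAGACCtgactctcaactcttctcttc
Ccl20: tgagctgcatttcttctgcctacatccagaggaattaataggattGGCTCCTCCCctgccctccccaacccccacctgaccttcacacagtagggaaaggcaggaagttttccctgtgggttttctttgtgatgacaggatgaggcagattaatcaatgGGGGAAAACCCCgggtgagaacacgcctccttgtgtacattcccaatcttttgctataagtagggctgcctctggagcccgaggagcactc
Cx3cl1: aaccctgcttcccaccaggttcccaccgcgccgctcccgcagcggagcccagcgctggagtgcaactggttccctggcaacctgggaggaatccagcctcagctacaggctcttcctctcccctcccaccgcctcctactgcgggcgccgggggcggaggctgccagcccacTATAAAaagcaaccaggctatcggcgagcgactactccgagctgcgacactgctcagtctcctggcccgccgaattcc
Ccl20 holds overlapping matches to GGGNNNNNCC from -91 to -80 on both strands and another at -205, and Il18 holds one at -31. Il1a holds TATAAA at -32 and, on the other strand, at -237, and Cx3cl1 holds TATAAA at -78. In all, 5 of the 10 members matched GGGNNNNNCC (Il1rn, Il18, Cxcl1, Ccl20 and Tnf), as did 42.3% of the 33465 promoter windows searched. TATAAA was found in 5 of 10 (Il1a, Il1b, Il1rn, Cx3cl1 and Tnf) and in 12.9% of all windows. The match with the letters GGGAATTTCC, in Cxcl1, lies at -84 before a gene whose RNA was listed at 0 in 3 animals. A match is a description of the letters and not a shown site.

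Other genes of the same pathways were read from the same fit. Of 34 further cytokines, 18 had a row and 9 were tested, and 0 passed an adjusted p of 0.05 in either direction. Their median log2 change was 0.44, against -0.02 over all features, and 8 of 9 were positive, against 46% of all features. The lists were chosen with earlier results of these data known. Such medians and counts are therefore descriptions only, here and for the lists below. The cytokines with the smallest p were Tnfsf10, Tgfb1 and Mif. Tgfb1, which encodes the growth and immune regulator TGF-beta 1, stood at 5.74, 5.97 and 5.40 FPKM in melatonin animals 4, 5 and 6, against 4.06, 1.69 and 1.95 FPKM in vehicle animals 1, 2 and 3. The groups did not overlap, where 8.38% of all features tested did not, and the gene was taken for its small p (log2 change 0.97 ± 0.27, SE, limma adjusted p = 0.972). Tnfsf10, the death ligand TRAIL of the TNF family, had a log2 change of 1.43 ± 0.28 (SE, limma adjusted p = 0.972), also without overlap. Mif, a constitutive cytokine of epithelium, stood at 108 ± 29.6 FPKM after melatonin and 78.8 ± 17.9 FPKM after vehicle (SD, n = 3 each).

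Of 29 further chemokines, 18 had a row and 10 were tested, with 0 past the threshold, 7 of 10 positive and a median log2 change of 0.36. The rule for named genes takes Cxcl6, Ccl9 and Ccl5. Ccl5, which draws T cells, stood at 2.15, 9.90 and 25.08 FPKM in melatonin animals 4, 5 and 6, against 3.66, 4.57 and 1.59 FPKM in vehicle animals 1, 2 and 3. Animals 5 and 6 were above the vehicle range and animal 4 was inside it (log2 change 1.25 ± 0.68, SE, limma adjusted p = 0.972). Ccl9 stood at 4.47 ± 0.542 FPKM after melatonin and 7.15 ± 2.74 FPKM after vehicle (SD, n = 3 each), with vehicle animal 1, at 4.16 FPKM, among the melatonin animals. Cxcl6, a neutrophil chemokine, was listed at 4.81, 2.34 and 4.69 FPKM in melatonin animals 4, 5 and 6, against 5.48, 0 and 0 FPKM in vehicle animals 1, 2 and 3.

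Of 20 receptors and decoy receptors, 13 had a row and 7 were tested, with 0 past the threshold, 4 of 7 positive and a median log2 change of 0.16. Beside Cx3cr1 and Il18bp, the rule takes Tnfrsf1b, the second TNF receptor, at 3.07 ± 1.38 FPKM after melatonin and 1.69 ± 0.969 FPKM after vehicle (SD, n = 3 each). Il1r1, the receptor of IL-1 alpha and IL-1 beta, had no row matched to its symbol and so was not analysed.

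Genes that process and release these cytokines had small log2 changes. Of 25, 19 had a row and 17 were tested, with 0 past the threshold, 10 positive and 7 negative, and log2 changes between -0.32 and 0.24. The rule for named genes takes Pycard and Capn1 here. Pycard, the adaptor of the inflammasome, stood at 67.9 ± 9.25 FPKM after melatonin and 75.4 ± 8.57 FPKM after vehicle (SD, n = 3 each). Capn1, a calcium-dependent protease of the calpain family, which can cut the IL-1 alpha precursor, stood at 79.6 ± 2.08 FPKM after melatonin and 85.2 ± 3.00 FPKM after vehicle (SD, n = 3 each). Its 3 melatonin values all lay under its 3 vehicle values, where 8.38% of all features tested did not overlap in either direction. Named here for their direct role, whatever their p, were Casp1, which cuts IL-1 beta and IL-18, and Adam10 and Adam17, which shed fractalkine and TNF. Casp1 stood at 66.1 ± 24.1 FPKM after melatonin and 58.9 ± 13.2 FPKM after vehicle, again as mean and SD. Adam10 stood at 51.4 ± 6.89 FPKM after melatonin and 49.2 ± 4.25 FPKM after vehicle, and Adam17 at 12.8 ± 0.835 FPKM after melatonin and 13.4 ± 3.48 FPKM after vehicle (SD, n = 3 each).

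Of 23 adaptors and inhibitors that act below the IL-1 and TNF receptors, 20 had a row and 19 were tested, with 0 past the threshold, 12 of 19 positive and a median log2 change of 0.09. Socs1, an inhibitor of cytokine signalling, stood at 2.73, 6.51 and 10.40 FPKM in melatonin animals 4, 5 and 6, against 1.94, 0.53 and 1.71 FPKM in vehicle animals 1, 2 and 3. The groups did not overlap, where 8.38% of all features tested did not, and animal 4 lay closest to the vehicle animals (log2 change 1.57 ± 0.43, SE, limma adjusted p = 0.972). Tnip1, which restrains NF-kappaB, stood at 145 ± 16.7 FPKM after melatonin and 126 ± 10.4 FPKM after vehicle (SD, n = 3 each). Myd88, the adaptor of the IL-1 and IL-18 receptors, stood at 44.6 ± 2.35 FPKM after melatonin and 38.9 ± 4.49 FPKM after vehicle (SD, n = 3 each).

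**Figure D5:**
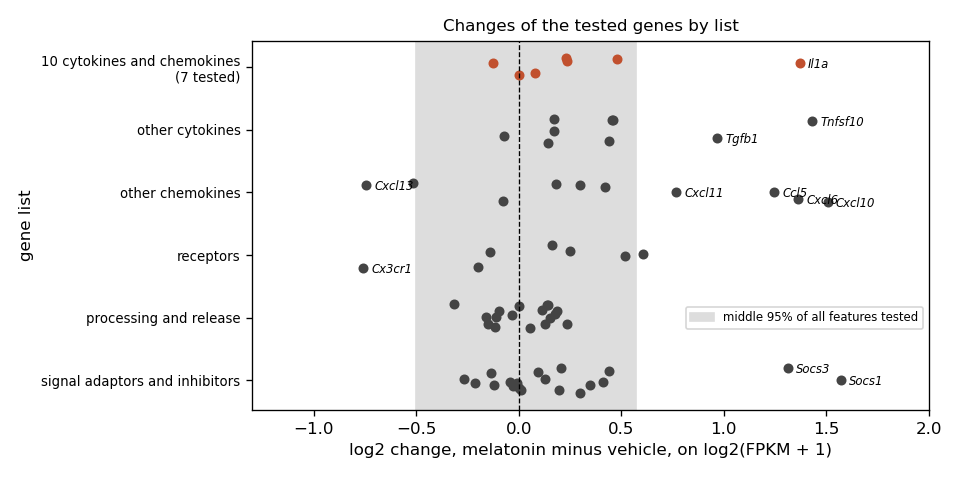
Log2 change (melatonin minus vehicle, of log2(FPKM + 1) values) of each tested gene, one point per gene, by list, with the 7 tested members in red and the middle 95% of all 10137 features, -0.50 to 0.57, in grey. 6 of the 7 members lie inside the grey band and Il1a lies outside it, and genes beyond 0.7 either way are named.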

How the data were processed

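Polyadenylated RNA was sequenced per the labels' protocols, which describe no strand marking, and the sources used here do not state if counting used strand. The FPKM values of each RefSeq transcript and animal were made by the authors and deposited rounded to 2 decimals. Tools listed in the submitters' processing notes are RSEM, Bowtie2 and BWA 0.7.10-r789, and the build is rn6, with no role stated. The authors' log2 ratio is used where their table is named, and their deposited score headed as a probability is not used.

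Transcripts were matched by accession to RefSeq symbols of GRCr8 (12883 of 13647) and summed per gene. Features with a mean of at least 1 FPKM (10137) entered limma 3.58.1 (R 4.3.3) on log2(FPKM + 1), two-sided, with a mean trend and Benjamini-Hochberg adjustment. This scale understates changes of low genes. The procedure was tested on simulated data. Members, lists and the rule for named genes were chosen with earlier results of these data known. The rule took all members, the 3 genes with the smallest p in each pathway list, and the 3 closest profiles of each uneven member. A gene that it takes is not reported here.

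Reads were estimated from FPKM steps with 36 bases taken off each length, where 90.8% to 91.7% of low values lay within 0.1 of a whole read. Intervals (95%, exact Poisson) cover counting error only. At most 0.55% of values were identical between 2 libraries. Alternatives changed scaling, pseudocount, filter, trend, transcript summing and animals.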

Additional observations from a re-analysis of the deposited data

How the results depend on the processing

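No member was called under any alternative run, and the smallest adjusted p of a tested member was 0.385 (limma, Il1a without melatonin animal 4). Of 90 alternative values for the 7 members tested, 83 kept their direction and 7 turned. Ccl20 turned to -0.007 with scaling to summed FPKM and to -0.01 with a pseudocount of 0.1, and ranged from -0.49 to 0.38 when animals were left out in turn. Ccl28 ranged from -0.34 to 0.14 and Il33 from -0.12 to 0.30 in the same way, and without a turn Il1a ranged from 0.27 to 2.15, Il18 from 0.04 to 0.48, Cx3cl1 from 0.22 to 0.73 and Il1rn from 0.14 to 0.37. The 3 members under the filter, tested without it, had limma adjusted p = 0.954 each. Over all features, calls lower numbered 1 without a filter and 1 without the mean trend, and leaving out animals gave 0 to 4 higher and 0 to 1 lower, and the cause was not tested. Il1a reached 1 FPKM in fewer than 3 libraries, so the filter that asks for 3 gives no value for it. Scaling moved the median of all features by less than 0.1 on the log2 scale. No paired analysis was possible because the melatonin and vehicle animals share no replicate number. Depth limits Il1b, Cxcl1 and Tnf, which rest on 8 estimated reads or fewer.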
